A study of Mus musculus with 8 samples.

Results

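A set of 10 genes of lipoprotein assembly and cholesterol efflux was followed in aging RPE/choroid, the retinal pigment epithelium (RPE) with the vascular layer beneath it. They were Nr1h3, Abca1, Abcg1, Scarb1, Apoe, Apoc1, Apob, Mttp, Pltp and Apod, and each was read by every probe set that the array annotation assigned to that gene alone. This gave 19 of 45037 probe sets and 10 of 18193 genes. The tissue came from male C57BL/6 mice, with 4 young samples (age 4 months) and 4 old samples (age 26 months), and the labels name no treatment or genetic change. Total RNA of each sample, pooled from both eyes of 2 animals, was hybridized to an Affymetrix mouse genome array. A probe set is a group of short oligonucleotides against a transcript, and its value here is a normalized linear intensity in arbitrary units, which can be compared between arrays but not between probe sets.

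Cells cannot degrade the sterol ring of cholesterol and dispose of the surplus by export. ABCA1 and ABCG1 move cholesterol and phospholipid across the membrane to apolipoproteins and to high-density lipoprotein (HDL), and both genes are classical targets of the liver X receptors (LXR), nuclear receptors that sense oxysterols. RPE cells take up lipid with the shed outer segments of photoreceptors and with plasma lipoproteins, and they also assemble and secrete particles that contain apolipoprotein B. Lipid accumulates in Bruch's membrane, on which the RPE rests, during human aging.

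The DNA just upstream of the genes is shown for Abca1, whose promoter is the textbook example of an LXR target, and for the 3 genes past the test in the age comparison that have an entry in the promoter table. RefSeq entries on build GRCm38.p6 were found for 7 of the 10 genes, not for Abcg1, Apoc1 and Scarb1. Each window searched is the 250 bases before the start in that table, and the sequences are written 5′ to 3′ on the strand of the gene, with motif matches in capitals. The annotated gene of Abca1 reaches 93 bases into its window, so that only the 157 bases upstream of the gene are printed for it. All 4 genes lie on the minus strand, and the printed bases are chr4:53159989-53160145 (Abca1), chr2:164857709-164857958 (Pltp), chr3:138143419-138143668 (Mttp) and chr16:31314809-31315058 (Apod).
Abca1: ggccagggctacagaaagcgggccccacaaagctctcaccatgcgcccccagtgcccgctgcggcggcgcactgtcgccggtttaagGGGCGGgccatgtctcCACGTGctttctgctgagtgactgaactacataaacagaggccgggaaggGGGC
Pltp: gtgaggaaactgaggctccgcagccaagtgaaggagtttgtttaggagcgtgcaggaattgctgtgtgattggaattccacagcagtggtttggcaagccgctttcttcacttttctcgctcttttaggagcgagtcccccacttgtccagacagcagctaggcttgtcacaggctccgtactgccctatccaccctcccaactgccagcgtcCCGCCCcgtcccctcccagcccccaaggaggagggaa
Mttp: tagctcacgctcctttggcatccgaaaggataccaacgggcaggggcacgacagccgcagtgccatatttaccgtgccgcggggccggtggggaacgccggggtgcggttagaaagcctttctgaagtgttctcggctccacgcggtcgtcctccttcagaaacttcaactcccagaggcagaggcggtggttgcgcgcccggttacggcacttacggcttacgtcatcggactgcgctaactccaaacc
Apod: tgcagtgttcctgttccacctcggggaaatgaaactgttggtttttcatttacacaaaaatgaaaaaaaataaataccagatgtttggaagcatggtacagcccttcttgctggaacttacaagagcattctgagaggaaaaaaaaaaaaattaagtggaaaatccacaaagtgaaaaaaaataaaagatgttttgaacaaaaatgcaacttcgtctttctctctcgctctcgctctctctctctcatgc

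The 4 windows differed in base composition and in the motifs they held. G and C made up 61.6% of the Abca1 window, 61.2% of the Mttp window, 57.6% of the Pltp window and 36.4% of the Apod window. The motifs searched, on both strands, were the GC box GGGCGG, the TATA box TATAAA, the E-box CACGTG, and direct repeats of AGGTCA spaced by 4 bases (the form bound by LXR with its partner RXR) or by 1 base. In the Abca1 window, GC boxes began 163 and 97 bases before the start, an E-box 147 bases and a TATA box 29 bases before it. The TATA box lies in the 93 bases inside the annotated gene, which are not printed, and the nearer GC box runs into them, so that its first bases end the printed sequence. The Pltp window held a GC box on the other strand, written CCGCCC, 37 bases before the start, and the Mttp and Apod windows held none of these motifs. Over all 32851 RefSeq promoter windows of this length, 32.7% held the GC box, 12.4% the TATA box and 6.02% the E-box.

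With up to 2 mismatches, neither direct repeat was found in a window of the 7 genes, against 2.57% of all promoters for the spacing of 4 and 3.24% for the spacing of 1. All 250 bases of each Apoe and Nr1h3 window lay inside the annotated gene, as did 48 bases of the Apob window. The DNA upstream of the annotated Apoe and Nr1h3 genes was thus not searched. A looser search with 3 mismatches, added after that result was seen, found the repeat spaced by 4 in the Abca1 window, 67 to 52 bases before the start, as TGACCGGTAGTAACCC, which reads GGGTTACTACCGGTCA on the other strand. This match also lies in the bases inside the annotated gene. At that setting 18.5% of all promoters held a match. The matches in these 4 windows did not overlap each other, and they describe letters, not binding.

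Among the 10 genes, Apod and Abcg1 rose in RPE/choroid from old animals, Mttp and Pltp fell, and 6 were not past the test. The test was limma's moderated test on log2 intensity, old against young, with Benjamini-Hochberg adjustment over all 45037 probe sets and a threshold of 0.05. For each gene the probe set of greatest mean log2 intensity over the 8 arrays served as its representative. Over all genes 21.3% passed this test, 11.8% as higher and 9.56% as lower in old animals; with 10 genes, the count of 4 gives no more than a description beside that background. Of the 19 probe sets 3 were higher, 3 lower and 13 not past the threshold, against 18.0% past it among all probe sets (9.22% higher, 8.75% lower). The median log2 fold change was 0.06 over the 10 genes and -0.02 over all genes.

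Only the second probe set of Apod passed the stricter threshold named in the methods of the study, a fold over 2 with an adjusted p under 0.01, which 0.844% of all probe sets passed. By their representatives, 0 of the 10 genes passed it, against 1.23% of all genes (1.13% as higher). The intensities of the 4 old and 4 young arrays did not overlap for 7 of the 19 probe sets (24.3% of all probe sets) and for 5 of the 10 genes (29.5% of all genes). Of the 19 probe sets, 15 lay above the median level of all probe sets, as did at least 1 probe set of 9 genes, all but Apob.

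**Figure D1:**
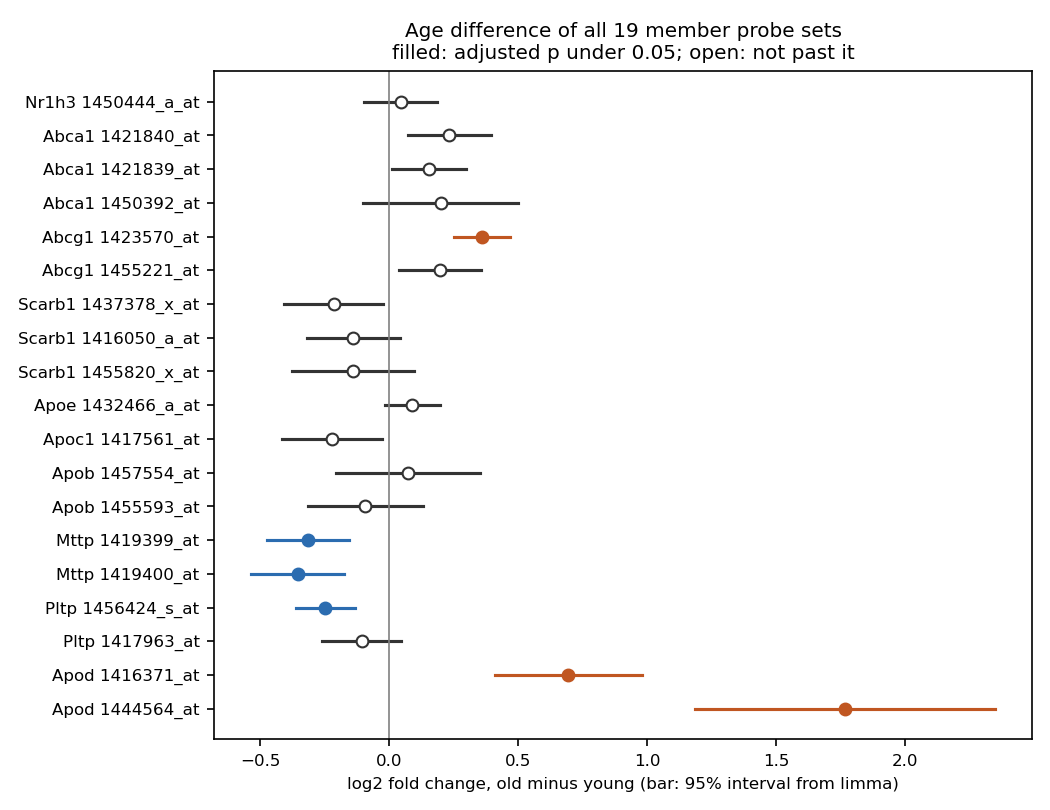
Log2 fold change of each of the 19 probe sets, old minus young (horizontal axis), with its 95% interval from limma over 4 old and 4 young arrays as a bar. Filled points passed an adjusted p of 0.05, in orange for higher (Abcg1 and both probe sets of Apod) and in blue for lower in old animals (both probe sets of Mttp and 1 of Pltp), and open points did not.

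Of the LXR genes, Nr1h3 was measured at nearly the same level at both ages. The other, Nr1h2, which encodes LXRβ, had no probe set of its own and was not read. Nr1h3, which encodes LXRα (chr2:91184061-91202829), read 196, 186, 203 and 217 in young replicates 1 to 4 and 202, 208, 198 and 218 in old replicates 1 to 4. The groups overlapped throughout, and the log2 fold change was 0.04 with a 95% interval from -0.10 to 0.19 (limma adjusted p = 0.664).

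Abcg1, an efflux transporter that loads cholesterol onto HDL (chr17:31057694-31117984), was higher in every old array. Its representative 1423570_at read 443, 434, 449 and 445 in young animals and 579, 555, 552 and 585 in old animals. The highest young array lay well under the lowest old array, and the spread within each age was small. The mean went from 443 ± 6.22 to 568 ± 16.6 (SD, n = 4 each), which is 1.28-fold, a log2 fold change of 0.36 (standard error, SE, 0.05, limma adjusted p = 0.00146). It stayed past the threshold in 16 of 16 alternative fits, with log2 fold changes from 0.32 to 0.39. The second probe set, 1455221_at, read 133, 126, 131 and 133 in young and 132, 158, 149 and 162 in old animals. Here old replicate 1 lay among the young arrays and the other 3 old arrays above them, and the log2 fold change of 0.20 did not pass the test (limma adjusted p = 0.0868). Without old replicate 1 it was 0.26 (adjusted p = 0.0177). The difference between the age changes of both probe sets was -0.16 (95% interval -0.34 to 0.01, adjusted p = 0.187) and did not pass limma's test over all pairs. The ratio of 1455221_at to 1423570_at within an array nevertheless did not overlap between ages, at 0.290 to 0.301 among young and 0.228 to 0.284 among old arrays (two-sided exact permutation p = 0.0286, the smallest that 4 against 4 arrays allow).

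Abca1, the transporter that starts HDL formation by lipidating free apolipoproteins (chr4:53030789-53159988), just missed the threshold. Its representative 1421840_at read 2197, 2133, 2362 and 2283 in young animals and 2871, 2737, 2346 and 2611 in old animals. Old replicate 3 fell inside the young range and the other 3 old arrays lay above it. The means were 2244 ± 99.9 and 2641 ± 224 (SD, n = 4 each), a log2 fold change of 0.23 (SE 0.07, limma adjusted p = 0.0526; two-sided exact permutation p = 0.0571). Whether Abca1 was counted depended on the fit, since 5 of 16 alternatives put it past the threshold (adjusted p from 0.014 to 0.225). One of these left out old replicate 3 (log2 fold change 0.29, adjusted p = 0.0273). The other probe sets gave 0.16 for 1421839_at (adjusted p = 0.126) and 0.20 for 1450392_at (adjusted p = 0.332), and all 3 estimates were positive. The first of them read 277 to 318 in young and 313 to 353 in old animals, and the second 81.6 to 115 and 98.7 to 135, so that the groups overlapped in both.

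On the side of uptake and remodelling of HDL, Pltp fell and Scarb1 was lower without passing the test. Pltp encodes the phospholipid transfer protein, which moves phospholipid between lipoproteins and is also a known LXR target (chr2:164839518-164857708). Its representative 1456424_s_at read 9422, 9151, 8723 and 9149 in young animals and 7650, 7816, 7394 and 7820 in old animals. Every old array lay below every young array. The mean went from 9111 ± 289 to 7670 ± 200 (SD, n = 4 each), a log2 fold change of -0.25 (SE 0.05, limma adjusted p = 0.0108), which is a level that fell by 15.8%. The second probe set, 1417963_at, read 5126, 5558, 4596 and 4714 in young and 4755, 4545, 4661 and 4571 in old animals. Its groups overlapped, and its log2 fold change of -0.11 was not past the threshold (adjusted p = 0.311). The difference between the age changes of both probe sets was 0.14 (95% interval -0.01 to 0.30, adjusted p = 0.196), so that they were not shown to disagree.

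Scarb1, the HDL receptor SR-BI, which also takes up carotenoids (chr5:125277087-125341094), had 3 probe sets that all gave negative estimates. The representative 1437378_x_at read 1531, 1463, 1331 and 1336 in young animals and 1082, 1395, 1186 and 1228 in old animals. Old replicate 2 lay within the young range and the other 3 old arrays below it. The log2 fold change was -0.21 (SE 0.09, limma adjusted p = 0.113), and -0.28 without old replicate 2 (adjusted p = 0.0472). The other 2 probe sets, 1416050_a_at and 1455820_x_at, both gave -0.14 (adjusted p = 0.26 and 0.384). Names that end in _x_at mark probe sets with oligonucleotides that can also match other transcripts.

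Of the pair of genes that build apolipoprotein B particles, Mttp fell and Apob was not past the test. Mttp encodes the microsomal triglyceride transfer protein, which loads lipid onto nascent apolipoprotein B (chr3:138089855-138143418). Its representative 1419399_at read 212, 194, 217 and 218 in young animals and 154, 175, 183 and 164 in old animals. The second probe set, 1419400_at, read 145, 149, 139 and 153 in young animals and 132, 117, 103 and 108 in old animals. In both, all old arrays lay below all young arrays. The representative went from 210 ± 11.3 to 169 ± 12.6 (SD, n = 4 each), a log2 fold change of -0.31 (SE 0.07, limma adjusted p = 0.0155). The second gave -0.35 (SE 0.08, adjusted p = 0.0166), and the estimates of both probe sets differed by -0.04 (95% interval -0.31 to 0.23).

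Apob, the structural protein of these particles (chr12:7977629-8016839), had both of its probe sets below the median level of all probe sets. The representative 1457554_at read 99.1, 70.7, 86.2 and 96.1 in young animals and 82.6, 111, 86.8 and 89.6 in old animals. The groups overlapped, and the log2 fold change of 0.07 had a 95% interval from -0.21 to 0.35 (limma adjusted p = 0.722). Its sign turned when young replicate 2 or old replicate 2 was left out (-0.03 and -0.02). The second probe set, 1455593_at, read 31.6 to 39.3 in young and 29.5 to 36.8 in old animals, with a log2 fold change of -0.09 (adjusted p = 0.553).

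Old replicates 2 and 4 were both left out in a further fit, a choice made with earlier results known. Replicate 4 stood apart in retinal markers, as described below. For inner retinal neurons, replicate 2 had a mean centred log2 value of -0.44, near old replicates 1 and 3 (-0.55 and -0.60). For rods it lay at -0.18, above old replicates 1 and 3 (-0.68 and -0.79). In that fit the calls of Mttp (limma adjusted p = 0.0839 and 0.106) and Pltp (adjusted p = 0.0521) were lost. Their log2 fold changes were then -0.32 and -0.33 for Mttp and -0.28 for Pltp, about as large as with all arrays. Both genes stayed past the threshold when any single array was left out.

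Apoe and Apoc1 are neighbours on chromosome 7 (chr7:19696244-19701310 and chr7:19689480-19692659), and their estimates had opposite signs. Apolipoprotein E is the ligand through which lipoprotein receptors take up remnant particles and an acceptor of exported cholesterol. Its only probe set, 1432466_a_at, read 12998, 13220, 12745 and 12550 in young animals and 13631, 13550, 13947 and 13696 in old animals. All old arrays lay above all young arrays, with means of 12878 ± 292 and 13706 ± 171 (SD, n = 4 each), but the difference was small. The log2 fold change was 0.09 (SE 0.05, limma adjusted p = 0.215), or 1.06-fold with a 95% interval from 0.989 to 1.15. Only the fit with a variance trend and robust estimation called it (adjusted p = 0.0361), and the two-sided exact permutation p of 0.0286 is the smallest that 4 against 4 arrays allow.

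Apolipoprotein C-I is a small exchangeable apolipoprotein that modulates lipases and receptor binding. Its probe set 1417561_at read 556, 443, 534 and 560 in young animals and 413, 453, 440 and 483 in old animals. Young replicate 2 lay among the old arrays, below the other 3 young arrays, which were above all old arrays. The log2 fold change was -0.22 (SE 0.09, limma adjusted p = 0.105). Without young replicate 2 it was -0.30 (adjusted p = 0.0207), and array weights also called it (adjusted p = 0.0468).

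Apod had the largest age difference of the 10 genes. It encodes apolipoprotein D, a lipocalin that binds arachidonic acid and other small lipids and is made by glia, fibroblasts and many other cells (chr16:31296192-31314808). The representative 1416371_at read 4347, 6749, 5432 and 5331 in young animals and 8636, 9598, 7675 and 9186 in old animals. The second probe set, 1444564_at, read 347, 682, 494 and 486 in young animals and 1297, 2587, 1247 and 1829 in old animals. Every old array lay above every young array in both, and in both replicate 2 was the highest array of each age. The representative rose from 5465 ± 986 to 8774 ± 832 (SD, n = 4 each), 1.62-fold, a log2 fold change of 0.70 (SE 0.13, limma adjusted p = 0.00645). The second rose from 502 ± 138 to 1740 ± 623 (SD, n = 4 each), 3.41-fold with a 95% interval from 2.28 to 5.10 (log2 fold change 1.77, SE 0.26, adjusted p = 0.00223).

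The probe sets of Apod differed from each other in their age change. Within each array, the ratio of 1444564_at to 1416371_at ran from 0.0797 to 0.101 in young animals and from 0.150 to 0.270 in old animals, with no overlap. The age change of 1444564_at exceeded that of 1416371_at by 1.07 on the log2 scale (SE 0.17, 95% interval 0.69 to 1.46, limma adjusted p = 0.00543 over all pairs; two-sided exact permutation p = 0.0286, the smallest possible). It was the only one of 9 such pairs among the 10 genes past limma's test, and 14.3% of all 16752 pairs of probe sets of one gene passed. The difference was 0.91 to 1.19 with any one array left out and 0.79 without old replicates 2 and 4 (adjusted p = 0.0112). In that last fit the representative gave 0.59 and was no longer past the threshold (adjusted p = 0.0667), while 1444564_at gave 1.38 (adjusted p = 0.0136). Which transcripts each probe set reads was not tested, since the files give no probe positions. They also differed in mean level, with 1416371_at at the 99.4 percentile of all probe sets and 1444564_at at the 88.9 percentile. The part of level in the difference was not tested either.

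**Figure D2:**
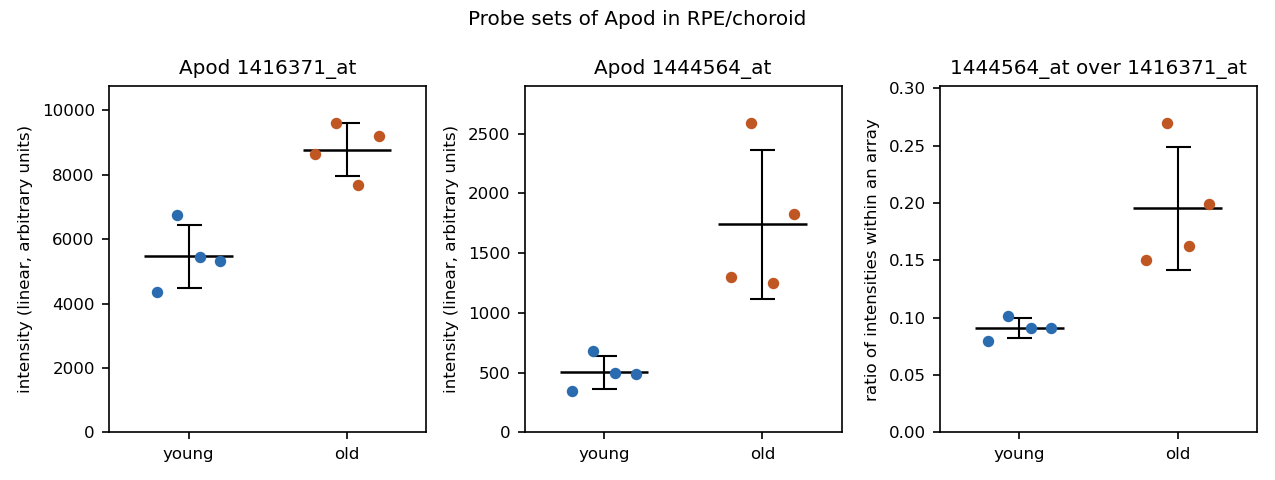
Intensity of both probe sets of Apod (left and middle vertical axes, arbitrary units) and their ratio within each array (right), for 4 young and 4 old arrays as points, with mean and SD as lines. Both probe sets are higher in all old arrays, and the ratio spans 0.0797 to 0.101 for young and 0.150 to 0.270 for old arrays.

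**Figure D3:**
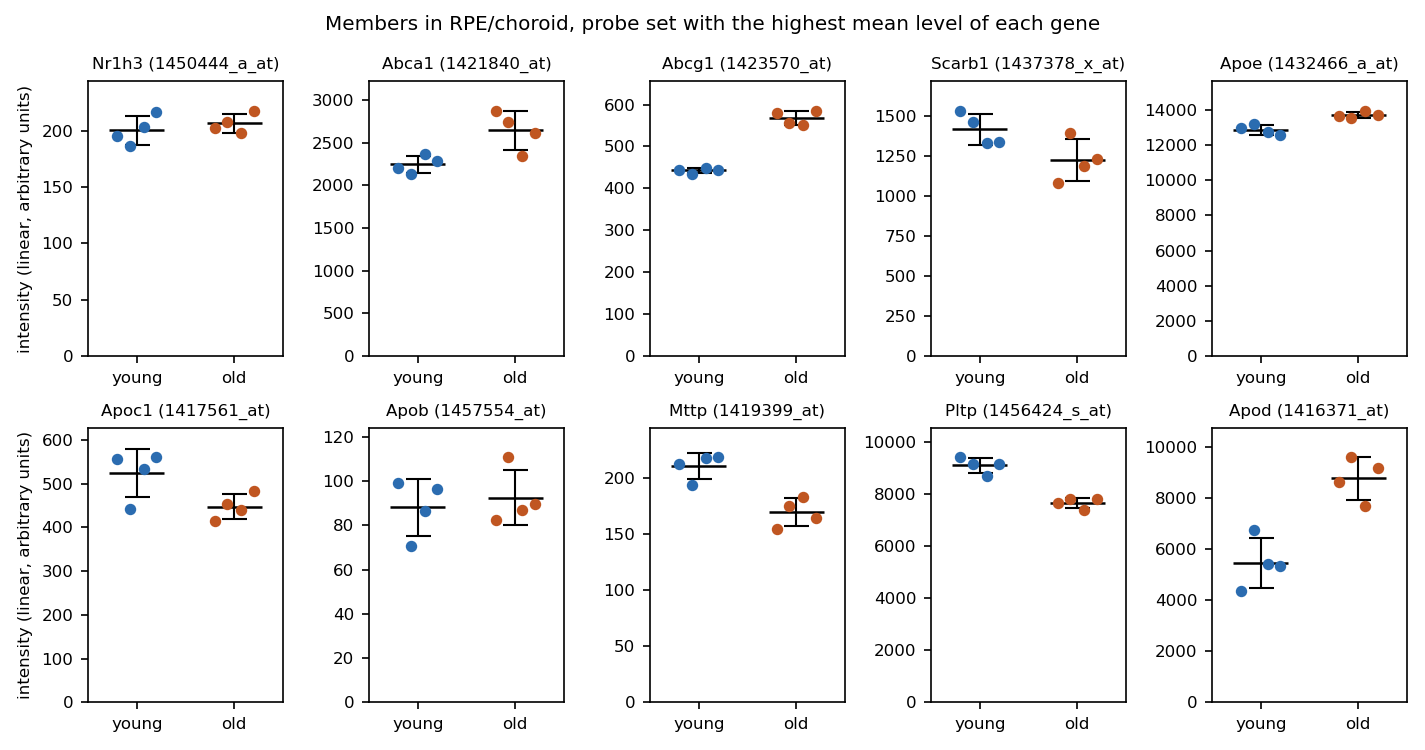
Intensity (vertical axis, linear, arbitrary units, starting at 0 and scaled for each gene) of the representative probe set of each of the 10 genes in 4 young and 4 old arrays, with mean and SD as lines. Young and old arrays do not overlap for Abcg1, Apoe, Mttp, Pltp and Apod.

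The other genes of lipoprotein and cholesterol handling were read from 7 lists of 101 genes, of which 91 had a probe set of their own. The rest were not analysed here. In old animals 26 of the 91 genes were higher, 11 lower and 54 not past the test, with a median log2 fold change of 0.04, where 11.8% of all genes were higher and 9.56% lower. The lower count thus lay near that background, and the counts of single lists below, of 7 to 17 genes each, are to be read against the same shares and were not tested for a difference from them. These counts rested on all arrays. The lower count was 6 without young replicate 1 or without old replicate 2, and 5 without young replicate 3, young replicate 4, old replicate 3 or old replicate 4, while the higher count was 17 without young replicate 3. Without old replicates 2 and 4 together, 14 were higher and 1 lower. Calls over all probe sets fell in that fit too, from 4154 higher and 3939 lower to 2004 and 1614. The genes named are up to 4 with the largest changes past the test in each list, and others, added after their values were seen, either complete a small count or give the level of a well-known gene that was not past the test.

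Among 15 lipoprotein and scavenger receptors 7 were higher, 2 lower and 6 not past the test (median 0.17; 11.8% higher and 9.56% lower among all genes). Cd68, a lysosomal glycoprotein of macrophages that binds oxidized lipoprotein, rose from 1556 ± 200.5 to 4307 ± 339 (SD, n = 4 each), a log2 fold change of 1.47 (limma adjusted p = 3.69e-05). Cxcl16, a transmembrane chemokine that acts as a scavenger receptor, rose by 1.44 (adjusted p = 0.000269), and Cd36, a receptor for oxidized lipoprotein and outer segments, by 0.83 (adjusted p = 0.000814). Lrp1, an endocytic receptor for apolipoprotein E, rose from 1218 ± 22.2 to 1762 ± 62.7, a log2 fold change of 0.53 (adjusted p = 0.000209). The lower receptors, added to complete the count, were Lrp2 (megalin, -0.30, adjusted p = 0.00835) and Lsr (-0.31, adjusted p = 0.0187). Vldlr, the very low density lipoprotein receptor gene, was also looked up and gave -0.24 (adjusted p = 0.106).

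Genes of intracellular cholesterol storage, hydrolysis and transfer numbered 17, of which 7 were higher, 3 lower and 7 not past the test (median 0.15; 11.8% higher and 9.56% lower among all genes). Npc1, which exports cholesterol from the lysosome, rose from 513 ± 15.0 to 808 ± 14.2 (SD, n = 4 each), a log2 fold change of 0.66 (limma adjusted p = 6.27e-05). Lipa, the lysosomal acid lipase, rose by 0.56 (adjusted p = 0.000901), and Nceh1, a neutral cholesteryl ester hydrolase, by 0.39 (adjusted p = 0.00424). Cav1, the coat protein of caveolae, fell by 0.31 (adjusted p = 0.0189, 0.0565 when old replicate 3 was left out and 0.141 when old replicates 2 and 4 were). The other lower genes, added to complete the count, were Star (-0.23, adjusted p = 0.0288) and Osbpl1a (-0.17, adjusted p = 0.047).

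Among 15 other apolipoproteins and assembly genes 8 were past an unadjusted p of 0.05 by limma, against 6804 of all 18193 genes. Past the adjusted test, 4 were higher and 0 lower (median -0.02). These were Apobec1, the enzyme that edits the Apob transcript, at 0.76 (limma adjusted p = 0.00133), Apoc2, the cofactor of lipoprotein lipase, at 0.39 (adjusted p = 0.0122), Apoc3, which inhibits that lipase, at 0.38 (adjusted p = 0.00866), and P4hb, the partner subunit of Mttp, at 0.27 (adjusted p = 0.00792). P4hb also serves protein folding outside this complex. Its estimate was thus positive where that of Mttp was negative. Apoc2 and P4hb were not past the threshold without old replicates 2 and 4 (adjusted p = 0.105 and 0.0598).

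Of 11 lipases and remodelling genes 4 were past an unadjusted p of 0.05 by limma, against 6804 of all 18193 genes. Past the adjusted test, 3 were higher and 0 lower (median 0.09). Pla2g7, a phospholipase that travels on lipoproteins, rose by 0.60 (limma adjusted p = 0.00177), and Pon2, an intracellular paraoxonase, by 0.26 (adjusted p = 0.00987, and 0.0846 without old replicates 2 and 4). Angptl8, a regulator of lipoprotein lipase, was at 0.35 (adjusted p = 0.0255) and was lost without young replicate 1, young replicate 3, old replicate 2 or old replicate 4 (adjusted p up to 0.0722), and without both of the latter (0.171). Lpl itself gave -0.10 (adjusted p = 0.762).

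Among 12 LXR partners, coregulators and further targets 4 were past an unadjusted p of 0.05 by limma, against 6804 of all 18193 genes. Past the adjusted test, 3 were higher and 0 lower (median 0.08). Pparg, a nuclear receptor of lipid storage, rose from 296 ± 26.3 to 452 ± 29.3 (SD, n = 4 each), a log2 fold change of 0.61 (adjusted p = 0.00104). The retinoid X receptor genes Rxra (0.25, adjusted p = 0.0273) and Rxrg (0.19, adjusted p = 0.0301) were past the threshold in 9 and 8 of 16 alternative fits (adjusted p = 0.156 and 0.18 without old replicates 2 and 4). The established LXR targets Mylip (0.01, adjusted p = 0.93) and Srebf1 (0.21, adjusted p = 0.188) were not past the test. Nor was Smpdl3a, also listed here (0.13, adjusted p = 0.214). All of these were named after their values were seen.

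Of 14 other ABC transporters 1 was higher, 4 were lower and 9 were not past the test (median -0.10; 9.56% of all genes were lower). Abcb1a, a drug efflux pump of barrier endothelium, fell by 0.36 (limma adjusted p = 0.00532, and 0.0557 without old replicates 2 and 4). The sterol transporter gene Abcg5 (-0.29, adjusted p = 0.0364), the phosphatidylcholine transporter gene Abcb4 (-0.24, adjusted p = 0.0488) and Abca7, the closest relative of Abca1 (0.25, adjusted p = 0.0221), were each lost in at least 6 of the alternative fits, and without old replicates 2 and 4 had an adjusted p of 0.185, 0.177 and 0.149. Abcg4, added to complete the count, gave -0.22 (adjusted p = 0.0333). Of 7 enzymes that form oxysterols or convert them and related sterols further, 1 was higher and 2 lower. Ch25h (0.11, limma adjusted p = 0.706), Cyp27a1 (-0.003, adjusted p = 0.978) and Cyp46a1 (0.07, adjusted p = 0.595), which form oxysterols from cholesterol, were not past the test. Cyp11a1, the side-chain cleavage enzyme, fell by 0.43 (adjusted p = 0.0188) but not past the threshold without young replicate 1 or young replicate 3 (adjusted p up to 0.0521) or without old replicates 2 and 4 (0.0846). Hsd3b7, an enzyme of bile acid synthesis, was at 0.25 (adjusted p = 0.0156, and 0.074 without old replicates 2 and 4), and the oxysterol hydroxylase gene Cyp7b1 at -0.22 (adjusted p = 0.0287, past the threshold in 8 of 16 alternative fits and at 0.194 without old replicates 2 and 4).

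**Figure D4:**
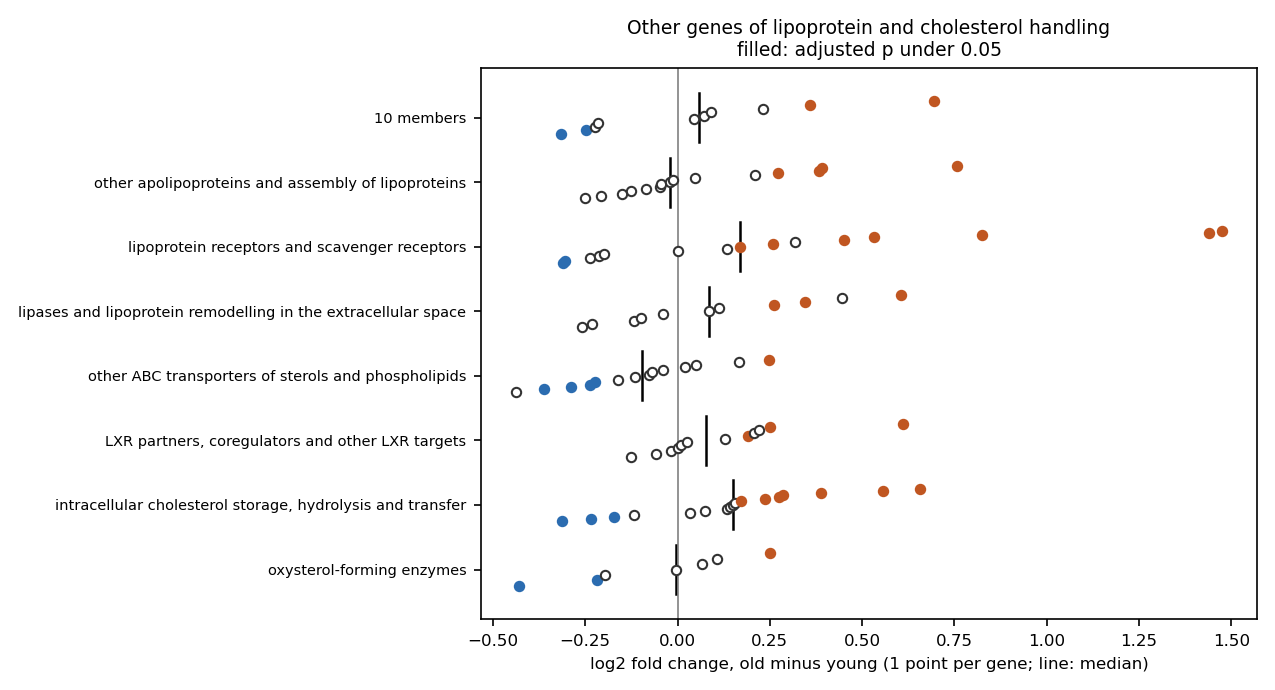
Log2 fold change, old minus young (horizontal axis), of each measured gene in the 10 genes followed here and in 7 lists of related genes, by the representative probe set over 4 old and 4 young arrays, with the median of each list as a line. Filled points passed an adjusted p of 0.05 in limma, and the 2 points farthest right are Cd68 (1.47) and Cxcl16 (1.44).

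Markers of several cell types differed between young and old arrays along with these genes. In tissue of mixed cells, fewer cells of a type and less RNA per cell cannot be told apart. Of 15 macrophage markers 12 were higher and 0 lower in old animals (median 1.04; 11.8% of all genes were higher), and their summed intensity ran from 33996 to 38797 among young arrays and from 58629 to 63672 among old ones. Of 12 RPE markers 8 were lower and 0 higher (median -0.25; 9.56% of all genes were lower), with sums of 110280 to 112490 and 94630 to 102790. No marker in either list was at 0, which says little, since array intensities carry background and no other list here held a 0 either. The part of macrophage and RPE content in the changes of Abcg1, Pltp, Mttp, Apod and the scavenger receptors was not tested.

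Among fibroblast and sclera markers 4 of 11 were higher and 0 lower (11.8% of all genes were higher), with sums of 34279 to 38448 at the young and 39594 to 46698 at the old age. Endothelial markers were lower for 7 of 10 genes and higher for 0 (9.56% of all genes were lower). The list for Mueller glia and astrocytes had 4 of 11 lower, again with 0 higher. The mean centred log2 value of that list was 0.00 in old replicate 4. It was -0.54 to -0.26 in the other old arrays and 0.22 to 0.37 in the young ones. Apod is also known from fibroblasts and glia, and the part of these cells in its change was not tested. Hepatocyte and adipocyte genes were included since many lipoprotein genes are best known from those cells. Albumin gave -0.05 on the log2 scale (limma adjusted p = 0.671) and Adipoq -0.00 (adjusted p = 0.991), although Fabp4, which macrophages and endothelium also express, rose by 1.88 (adjusted p = 0.000215).

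Old replicate 4 stood apart in its retinal markers. The mean centred log2 value of 12 markers of inner retinal neurons reached 0.40 in old replicate 4, against -0.60 to -0.44 for the remaining old samples and 0.28 to 0.31 for the young ones. Its rod markers averaged 0.67, against -0.79 to -0.18 for the remaining old arrays, and the young arrays were also spread, from -0.51 to 0.58. Old replicate 2 had the lowest value for RPE markers (-0.19) and the highest for macrophage markers (0.55), though near old replicate 3 (-0.13 and 0.50), and it was also the highest old array for both probe sets of Apod. Without it, Apod gave 0.65 (limma adjusted p = 0.0209) and 1.56 (adjusted p = 0.00428) on the log2 scale. Within each age the arrays correlated at 0.991 or more over all probe sets, and the array medians were 129 to 135.

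**Figure D5:**
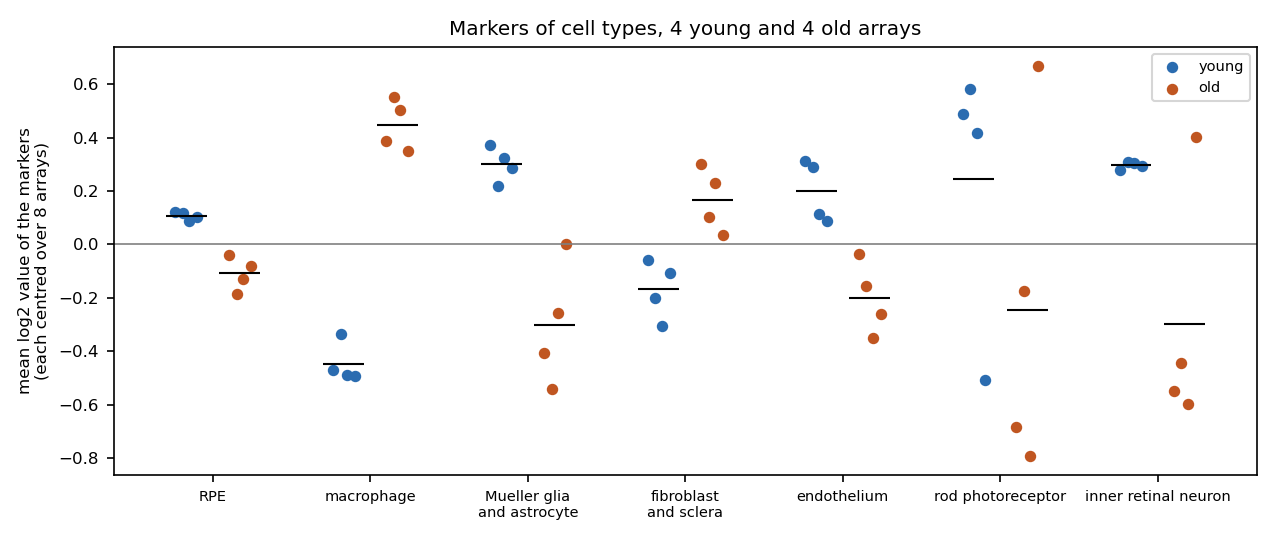
Vertical axis: log2 intensity averaged over the markers of each of 7 cell types, after centring every marker across the 8 arrays, in 4 young and 4 old arrays as points, with the group mean as a line. Macrophage markers are higher and RPE markers lower in all old arrays, and old replicate 4 lies at 0.67 for rod and 0.40 for inner retinal neuron markers, away from the other old arrays.

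For the 4 genes past the test, the genes with the most similar values over the 8 arrays were sought by the root mean square difference of centred log2 values. Nearest to Abcg1 were Mbnl1 (0.0263), Chst12 (0.0373) and Dync1h1 (0.0377), out of 745 genes within 0.1. Nearest to Pltp were Ipo11 (0.0269), Ankrd1 (0.0272) and Gstcd (0.0302), out of 2292 genes. The distance was not scaled by the size of a change. These counts thus depend in part on how large the change of a gene was, and do not rank how unusual its profile is. Nearest to Mttp were Rnf122 (0.0447), Celrr (0.0449) and Lrrc23 (0.049), out of 440 genes. Apod, with the largest change, had Panx1 at 0.0872 as the only gene within 0.1, then Alcam (0.110) and Larp6 (0.125). None of the other 9 genes followed here was among the nearest genes named. The genes that made up the wider counts within 0.1 were not examined by name.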

How the data were processed

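RPE/choroid RNA of 4 young and 4 old samples was measured on 1 array each. Images were quantified in GCOS. The authors deposited a table of normalized linear intensity values, and which of the routes in their methods (affy with RMA, Dchip2006 with an invariant set and perfect match probes alone, or BRB-ArrayTools) gave it is not stated. Precision is limited by the number of arrays.

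Values were floored at 1 (8 to 14 per array lay below it), log2-transformed and fitted with lmFit and eBayes (R 4.3.3, limma 3.58.1), old against young, over 45037 probe sets after 64 controls of 45101 were left out. Symbols came from the annotation of the array, in which 34945 probe sets name a single gene. On simulated data, 57 of 100 probe sets changed by 0.5 on the log2 scale and 94 of 100 changed by 1 were found. There were 8 false calls among the 44837 of 45037 probe sets left unchanged. In the real data 18.0% of probe sets passed, which makes the adjustment less strict, so that these shares do not carry over to them. Pairs of probe sets of one gene were tested on their log2 difference within arrays. Exact permutation tests were two-sided.

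The genes and lists were chosen with earlier results of these data known. All 10 genes are given with every probe set, and in each list up to 4 genes past an adjusted p of 0.05, chosen by size of change. Promoters and gene positions are from RefSeq, GRCm38.p6.

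Alternatives were quantile normalization, median centring, the replicate number as a block, weights per array, a variance trend with robust estimation, an offset of 16, a filter on low values (above the median level), other readings of a gene and thresholds, and leaving out arrays.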

Additional observations from a re-analysis of the deposited data

Results flagged for a closer look

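Of 88 groups of 4 arrays examined, 2 held an array far from the rest by Dixon's ratio (gap over range, at the 95% level), and chance gives about 1 in 20. For Lrp1 this was young replicate 1, the lowest (ratio 0.968), at 1184 against 1228 to 1229. For Pparg it was old replicate 2, the lowest (ratio 0.869), at 408 against 463 to 472.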

How the results depend on the processing

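The alternatives left 115 of 138 values of the counts and of the Apod pair within 1.5 times or on the same side of the threshold, and 23 moved. The count of lower pathway genes (11) was 7 after median centring and 4 with the replicate block. The variance trend with robust estimation gave 5 higher probe sets and 4 higher genes among those followed, and the filter on low values 5 higher probe sets. Without old replicates 2 and 4, 0 probe sets and 0 genes were lower, 1 gene was higher, and the pathway lists held 14 higher and 1 lower. At a fold over 2 and adjusted p under 0.01, 1 probe set was higher and 0 lower, 0 genes passed in either direction, and the lists held 2 and 0. Leaving out single arrays gave 3 to 4 higher and 3 to 4 lower probe sets, 2 to 3 higher and 2 to 3 lower genes, 17 to 25 higher and 5 to 9 lower pathway genes, an Apod pair difference of 0.91 to 1.19, and 1 called pair each time. Signs turned for Nr1h3 (-0.00 without old replicates 2 and 4) and for Apob 1457554_at (-0.044 without old replicates 2 and 4, -0.0285 to 0.134 over single arrays left out, with -0.0167 without old replicate 2, and -0.0097 as the mean of all probe sets). The cause was not tested. Of the values of single genes, 638 kept direction and side, 69 fell below the threshold and 13 passed it. Over all probe sets, 4154 were higher and 3939 lower, 4819 and 3023 after median centring, and 3984 and 4227 after quantile normalization. They were 3257 and 2930 with the replicate block and 2004 and 1614 without old replicates 2 and 4. Leaving out single arrays gave 2827 to 4284 higher and 2135 to 4030 lower over all probe sets. Fewer calls in these fits were thus not particular to the genes followed or to the lists. Arrays with the same replicate number correlated at 0.019 to 0.0971 after the age effect was removed, and 1 of 4 correlated best with its own number, so the numbers were not taken as pairs. With the block, 3 higher and 3 lower probe sets were called among those followed. No slide or scan date was used. With 4 arrays per age small changes can be missed, and the share missed in these data was not measured.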
